A study of Mus musculus with 4 samples.

Results

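In ovaries cultured from day 3 of life, 57 long non-coding RNA features of 50821 listed were counted in both libraries and had no count in either library of uncultured day 3 ovaries. They were selected on their expected counts in all 4 libraries, with at least 10 counts in both cultured libraries and 0 in both day 3 libraries. Among them, 5 features of 991 bases had nearly equal counts and were taken as 1 signal, which left 53 separate signals. The absence at day 3 is therefore how the features were chosen, and their counts are given as a description without a test.

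The day 3 group was ovary of 3-day-old Mus musculus (2 libraries), called before initiation in the labels. The cultured group was ovary taken at the same age and kept in vitro for 8 days (2 libraries), called after initiation. The labels give no strain, genotype or agent for either group. Nor do they state that the 2 libraries of a group stem from different animals, so the spread between them may be technical. The groups differ both in time after birth and in culture, which cannot be told apart, and in whole ovary a change in the number of cells of a type and in RNA per cell cannot be told apart either. No feature could be matched to a gene symbol, so markers of ovarian cell types were not analysed here.

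In the mouse, clusters of germ cells break down around and after birth, and primordial follicles form, resting oocytes wrapped in flattened granulosa cell precursors. Initiation, also called activation, is the step at which some of these leave the resting pool, the oocyte enlarges and the surrounding cells become cuboidal and divide. Long non-coding RNAs are transcripts with no evident protein-coding frame. Many are made at low level and in few cell types, some act on chromatin or on neighbouring genes, and most have no known role. Identifiers starting with NONMMUG are mouse genes of the NONCODE catalogue, and the origin of those starting with LXLOC is not given in the labels. Neither form comes with a gene symbol, so what each feature does was not analysed here.

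The listed counts summed to 26566784 and 26324839 in day 3 libraries 1 and 2 and to 20939363 and 18215834 in cultured libraries 1 and 2. Cultured library 1 stood apart, with 11211 features at an FPKM (fragments per kilobase, relative to the size of the library) of 0.5 or more, against 6991 in cultured library 2 and 7025 and 7334 at day 3. Expected counts are estimates that divide reads among features, and a count that is not whole holds part of a divided read or set of reads.

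Most of the signals were faint. Of the 53, 30 had a lower cultured count from 10 to under 20, 16 from 20 to under 50, and 7 had 50 or more in both cultured libraries. The median expected count over the 57 features was 31 in cultured library 1 and 24 in cultured library 2, and the median FPKM was 0.47 and 0.37. FPKM 1 was reached in both cultured libraries by 10 features, 5 of them the 991-base set. Each signal was counted as 1 feature, the 991-base set by the mean of its 5 features and not by their sum. Ranked by the mean count of both cultured libraries, the first signal held 11.3% of the counts in cultured library 1 and 22.4% in cultured library 2. The first 10 held 56.5% and 62.0%. By the sum of its 5 features the 991-base set would rank first, so these shares depend on that choice.

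Among single features NONMMUG005850.2, a single transcript of 3381 bases, had the highest mean count over both cultured libraries. It had 308 and 551 counts in cultured libraries 1 and 2 (FPKM 2.09 and 4) and 0 in both day 3 libraries. Both values were whole numbers, so no divided reads are visible in them. With a floor of 3 counts in each day 3 library it was at least 143-fold higher after culture, at least 74.2-fold with cultured library 1 alone and at least 212-fold with cultured library 2 alone. The next identifier number down, NONMMUG005849.2, was listed with 1 count in day 3 library 2 and none after culture.

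NONMMUG045983.2, with 2 transcripts and a length of 4132 bases, came next among single features by mean count. It was the highest single feature in cultured library 1, with the 991-base set not summed. Its counts were 379 and 120 after culture (FPKM 2.1 and 0.71), the higher value in cultured library 1. This was the opposite order to NONMMUG005850.2. The bound was at least 68.7-fold with both cultured libraries and at least 46.1-fold with cultured library 2 alone.

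A pair of LXLOC features was higher in cultured library 2. LXLOC_045405, of 4002 bases, had 73.2 and 207 counts in cultured libraries 1 and 2 (FPKM 0.42 and 1.27), at least 48.6-fold above the floor. LXLOC_023029, of 1529 bases, had 56.6 and 180 counts (FPKM 0.87 and 2.96), at least 41.4-fold above it. The estimates were fractional in both features. With cultured library 1 alone the bounds were at least 17.6-fold and at least 13.6-fold.

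In counts and FPKM, the cultured libraries were closer to each other for the remaining single features of this class. NONMMUG042145.2, of 1546 bases, had 64.6 and 95.7 counts, at least 26.2-fold above the floor. Its bound was at least 15.6-fold with cultured library 1 alone and at least 36.8-fold with cultured library 2 alone. NONMMUG005683.2, of 2979 bases, had 86.7 and 62.5 counts, at least 22.5-fold above the floor. Over the 53 signals the bound ran from at least 3.25-fold to at least 143-fold, with a median of 7.13. By this bound 21 signals were at least 10-fold above the floor. The rule asks for 10 cultured counts and the floor is 3, so the low end of this range follows from the selection. The bounds over all features were not analysed here. The bounds take the cultured counts as given and do not cover their counting error.

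In the 16 signals whose lower cultured count lay from 20 to under 50, several were nearly even in counts between the cultured libraries. NONMMUG040941.2, of 2135 bases, had 34 and 33 counts in cultured libraries 1 and 2 and was at least 10.4-fold above the floor. NONMMUG015893.2, of 469 bases, had 31.8 and 34.7 counts and, being short, a higher FPKM of 1.74 and 2.04. NONMMUG040404.2, of 2545 bases, had 38.2 and 45.3 counts with an FPKM of 0.35 and 0.44, and NONMMUG037454.2 had 22 and 26 counts. On the scale of the bounds, cultured library 2 was the higher in each of these 4. With cultured library 1 alone and cultured library 2 alone, the bounds were 8.20-fold and 12.7-fold for NONMMUG040941.2. For NONMMUG040404.2 they were 9.21-fold and 17.4-fold. These 4 and the next 4 features were named after their values were seen.

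In counts, the spread was wider for NONMMUG025696.2, NONMMUG008046.2 and NONMMUG044207.2 of this class. NONMMUG025696.2, of 430 bases, had 29 and 48 counts (FPKM 1.75 and 3.12), both whole numbers. Cultured library 1 was the higher by counts and by FPKM in NONMMUG024349.2 (32.1 and 26.9 counts), NONMMUG008046.2 (40.2 and 25.6) and NONMMUG044207.2 (67.7 and 22.3). Their bounds were at least 9.03-fold, 9.75-fold and 12.4-fold. On the scale of the bounds, cultured library 2 was the higher in NONMMUG024349.2 (7.74-fold with cultured library 1 alone, 10.3-fold with cultured library 2 alone). NONMMUG008046.2 was nearly even on that scale (9.68-fold and 9.82-fold).

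**Figure D1:**
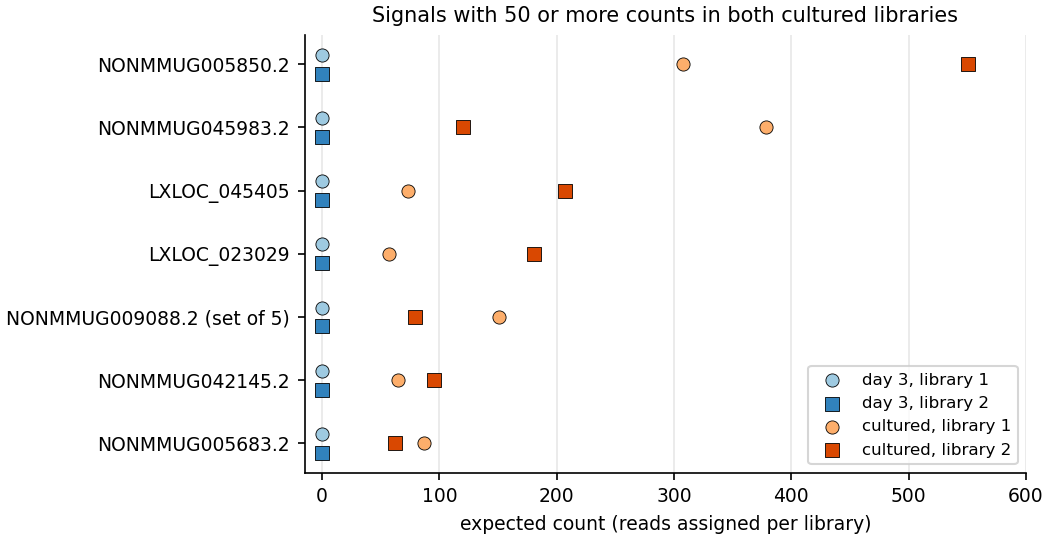
Expected counts (horizontal axis) of the 7 signals with 50 or more counts in both cultured libraries, 1 point per library and no error bars. All day 3 points lie at 0, and NONMMUG005850.2 reaches 308 and 551 after culture while NONMMUG045983.2 has its higher value, 379, in cultured library 1.

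The joined set of 991 bases comprised 5 features, NONMMUG009088.2, NONMMUG019644.2, NONMMUG022667.2, NONMMUG027534.2 and NONMMUG036487.2. In cultured library 1 NONMMUG027534.2 had 138 counts and the other 4 had 150. In cultured library 2, NONMMUG036487.2 had 77.9 and the other 4 had 79.2. Their identifier numbers are far apart, and reads may be divided among them, so they are uncertain as separate genes. As 1 signal they were represented by NONMMUG009088.2 (FPKM 3.63 and 2.05) and not by the sum of the 5. Where reads are divided among the 5, 1 member holds only part of the signal. On the counts of NONMMUG009088.2 the signal was at least 33.4-fold above the floor, taking the estimated 0 at day 3 as given.

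The absence of the 991-base set at day 3 was not shared by other abundant features of that length. Of 37 features of 991 bases listed in any library, 10 outside the set also had 50 or more counts in both cultured libraries, and all 10 were counted in at least 1 day 3 library. A set of 4 among them, NONMMUG009456.2, NONMMUG010879.2, NONMMUG014102.2 and NONMMUG019431.2, had equal values at day 3, 20.3 counts in library 1 and 48.9 in library 2. After culture NONMMUG010879.2 had 268 counts in library 1, the other 3 had 293, and all 4 had 219 in library 2. NONMMUG045930.2 had 0 and 42.0 counts at day 3 and 242 and 173 after culture. NONMMUG001536.2, the most abundant of this length, had 172 and 501 at day 3 and 1585 and 1457 after culture. In 8 of these 10 features both cultured counts were above both day 3 counts. Whether the features of this length share sequence, and whether estimated counts of 0 at day 3 result from how reads were divided among them, was not tested.

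**Figure D2:**
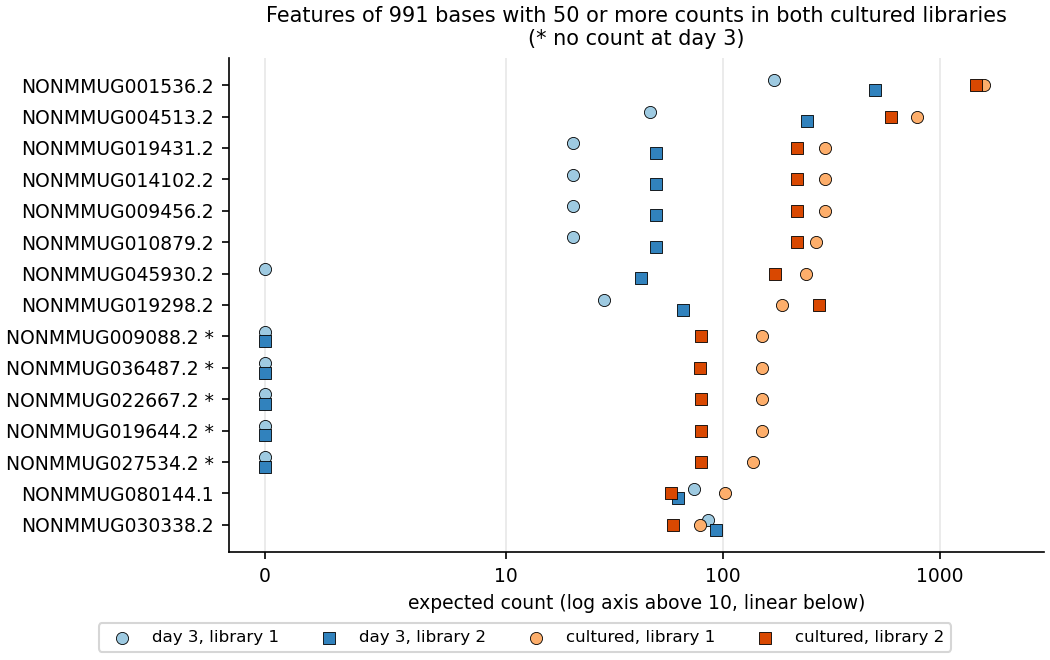
Expected counts (horizontal axis, logarithmic above 10 and linear below) of the 15 features of 991 bases with 50 or more counts in both cultured libraries, 1 point per library. The 5 starred features sit at 0 in both day 3 libraries and near 150 and 79.2 after culture, while NONMMUG019431.2 and its equals have 20.3 and 48.9 counts at day 3.

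Another 4 of the features carried identifier numbers close to each other, and the numbers between them were also counted mainly after culture, at levels that varied widely. NONMMUG039979.2 had 31 and 15 counts in cultured libraries 1 and 2, NONMMUG039981.2 had 61 and 13, NONMMUG039984.2 had 35 and 12, and NONMMUG039992.2 had 200 and 40. All 4 were single transcripts with whole counts, and all were higher in cultured library 1. NONMMUG039992.2, of 3315 bases, was at least 31.8-fold above the floor, and at least 15.4-fold with cultured library 2 alone.

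They belong to an unbroken series of 19 identifiers, NONMMUG039977.2 to NONMMUG039995.2, chosen after the values were seen. Each of the 19 had at least 5 cultured counts in all and more than 5 times as many as at day 3. Of 47459 NONMMUG features listed, 5.52% met this criterion, and the series was the longest unbroken one, ahead of one of 7. Its counts summed to 10 and 11.0 in day 3 libraries 1 and 2 and to 1959 and 451 in cultured libraries 1 and 2, 115 times as many counts in all. NONMMUG039993.2, with 2 transcripts and the highest cultured sum, had 2 counts in each day 3 library and 446 and 90 after culture. NONMMUG039982.2 had 0 and 2 at day 3 and 314 and 52 after culture, and NONMMUG039994.2 had 3 and 1 against 321 and 91.

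Of the 15 identifiers of the series outside the 57 features, 9 were counted at day 3, with sums of at most 5.98, and 6 had no count at day 3 but fewer than 10 in a cultured library. The faintest was NONMMUG039980.2, with 6 and 1 counts after culture. The listed features on either side in number did not share the pattern. NONMMUG039972.2, the listed feature before it, had 1.53 and 1 counts at day 3 and 1.15 and 1.62 after culture. NONMMUG039999.2, the listed feature after it, had 13 and 21 at day 3 and 13 and 8 after culture. Whether neighbouring numbers are neighbours in the genome was not analysed here.

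The series was also uneven between the cultured libraries. More counts were found in cultured library 1 for 18 of the 19 features, and the exception, NONMMUG039995.2, had 3 and 14. The summed counts were 4.34 times as high in cultured library 1, and the median ratio over the 19 features was 4.69. Over the 14940 features with 10 or more counts in both cultured libraries, the median ratio of library 1 to library 2 was 1.76. With cultured library 2 alone, the longest series under the same criterion held 6 features. All cultured counts in the series were whole numbers.

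**Figure D3:**
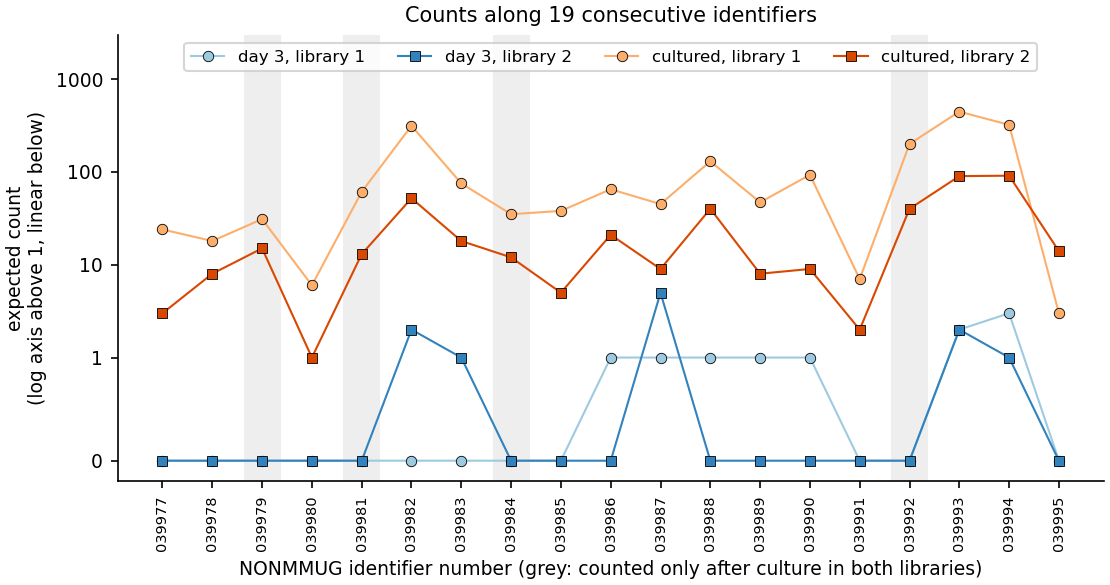
Expected counts (vertical axis, logarithmic above 1 and linear below) for the 19 consecutive NONMMUG identifiers, 1 line per library, with grey bands at the 4 features that had no day 3 count and 10 or more counts in both cultured libraries. Both cultured lines lie above both day 3 lines at all 19 positions, with cultured library 1 highest at 18, and NONMMUG039995.2 at the right edge has its higher value, 14, in cultured library 2.

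Outside this series, the 45 other NONMMUG features had 107 listed features at most 2 numbers away, and 12 of these (11.2%), beside 9 of the 45, met the criterion used for the series, against 5.52% of all listed NONMMUG features. The difference between these shares was not tested. The feature with 3 such numbers beside it was NONMMUG001185.2, of 624 bases, with 28.4 and 21.6 counts after culture. Beside it stood NONMMUG001184.2, with 14 transcripts, which had 289 and 780 counts at day 3 and 3935 and 2613 after culture. NONMMUG001186.2 had 0 at day 3 and 9.77 and 19.8 after culture, and so fell just below the threshold.

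The ratio between the cultured libraries varied widely among the 53 signals. For 33 the FPKM values lay within a factor of 2, for 12 cultured library 1 was more than 2-fold higher, and for 8 cultured library 2 was. Pearson's r of log2 FPKM between the cultured libraries was 0.722 over the 53 signals (Spearman's rho 0.731), a description over features of the same libraries. The SD of the log2 difference was 1.09. The scale of the fold bounds sets cultured library 2 higher relative to cultured library 1 than FPKM does, so these splits hold for FPKM.

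At the ends of this range lay features whose cultured level rested mostly on a single library. NONMMUG066191.1, of 775 bases, had 40.4 counts in cultured library 1 and 193 in cultured library 2 (FPKM 1.27 and 6.52), and its bound of at least 42.0-fold was at least 9.74-fold with cultured library 1 alone. NONMMUG014888.2, of 4246 bases, had 15 and 56 counts, with a bound of at least 12.6-fold and at least 3.62-fold with cultured library 1 alone. In the other direction, NONMMUG006562.2, of 2128 bases, had 137 and 28.9 counts (FPKM 1.49 and 0.34), and its bound of at least 22.1-fold was at least 11.1-fold with cultured library 2 alone.

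Among all 14940 features with at least 10 counts in both cultured libraries, 17.8% had the higher FPKM in cultured library 2, and the median log2 difference of library 2 minus library 1 was -0.72. Among the 53 signals 22 were higher in cultured library 2, or 41.5%, with a median of -0.28. The signals were fainter, with median counts of 30.0 and 22 in cultured libraries 1 and 2, against 62 and 32. The shares are therefore not compared at like abundance. The difference between these shares was not tested.

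**Figure D4:**
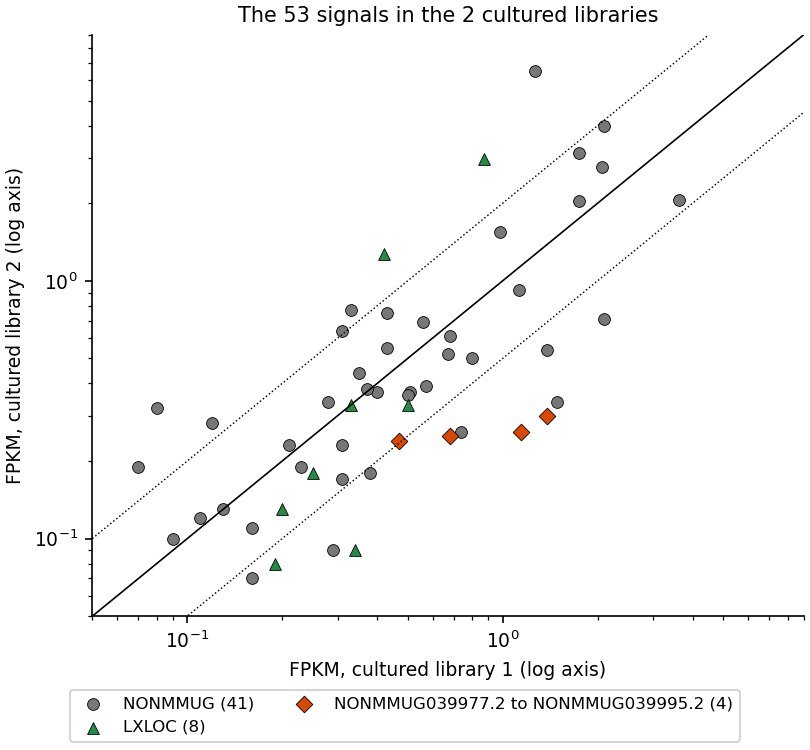
FPKM of the 53 signals in cultured library 1 (horizontal) and cultured library 2 (vertical), both on logarithmic axes, with the line of equal values and dotted lines at 2-fold. The 4 features of the NONMMUG039977.2 to NONMMUG039995.2 series lie below the line of equal values, and 33 of the 53 signals lie within the dotted lines.

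By class of identifier, 8 of the 57 were LXLOC and 49 NONMMUG. LXLOC made up 14.0% of the 57 and 8.89% of the 14940 features with 10 or more counts in both cultured libraries. It made up 47.1% of the 51 features meeting the mirror rule (10 or more counts in both day 3 libraries, none after culture). The share to set beside 47.1%, over all features with 10 or more counts in both day 3 libraries, was not analysed here. At 50 or more counts in both libraries stood 11 of the 57 features, and 1 of the 51 by the mirror rule. The 11 include the 5 features of the 991-base set, and with that set as 1 they were 7 of the 53 signals. The 51 were not joined in this way, and the share of all features at this level was not analysed here. Neither difference was tested, since the rules used the same counts.

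LXLOC_045405 and LXLOC_023029 had the highest mean counts of the LXLOC features. In cultured library 1 alone they were below LXLOC_019954, the longest of all at 8494 bases and with 2 transcripts, which had 128 and 32.6 counts (FPKM 0.34 and 0.09). LXLOC_091001, of 2346 bases, had 33.4 and 31.2 counts and an FPKM of 0.33 in both cultured libraries. LXLOC_067830 had 32.3 and 12.6 counts, LXLOC_076260 had 20.5 and 12.5, LXLOC_060238 had 18.0 and 11, and LXLOC_079132 had 17.3 and 11.6. The higher FPKM was in cultured library 1 for 5 of the 8 and in cultured library 2 for 2.

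Whole and fractional estimates divided the features unevenly between the classes. Counts, printed to at most 2 decimals, were exactly whole in both cultured libraries for 23 of the 57 features, all of them NONMMUG, and fractional in at least 1 for the other 34, which included all 8 LXLOC features. The share with whole counts was 40.4%, or 43.4% with the 991-base set as 1 signal, against 47.1% of the 14940 features with 10 or more counts in both cultured libraries. That share was not analysed by class, so whether LXLOC features are mostly fractional throughout is not known here. The 23 features with whole counts had a median of 17 counts in each cultured library, and the other 34 had medians of 36.3 and 28.5. NONMMUG005850.2 and the 4 features of the series from NONMMUG039977.2 to NONMMUG039995.2 were among the 23.

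In length the 57 features ran from 384 bases (NONMMUG066389.1, with 30.0 and 37.2 counts after culture and FPKM 2.07 and 2.76) to 8494 bases, with a median of 1546. The 14940 features with 10 or more counts in both cultured libraries had a median of 2108. Of the 57, 16, or 28.1%, were shorter than 1000 bases, against 15.1%, and the 5 features of 991 bases were among the 16. With the set as 1 signal the share was 22.6% and the median 1620.

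Single transcripts made up 45 of the 57, or 78.9%, against 77.2% of the 14940. The feature with the most transcripts was NONMMUG031959.2, with 5, which had 90.8 and 24 counts. Its deposited mean length was 1541 bases in cultured library 1 and 1126 in cultured library 2, so the estimated mix of its transcripts differed between those libraries. NONMMUG023632.2, with 3 transcripts, had 12 and 19 counts, and NONMMUG024317.2, also with 3, had 14 and 17.

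The threshold cut through a continuous range of values. Just inside it, NONMMUG036716.2 had 10 and 11 counts in cultured libraries 1 and 2, NONMMUG040737.2 had 11 and 10, and NONMMUG023893.2 had 17 and 10. Just below it, with no count at day 3, NONMMUG033025.2 had 91.7 and 9.53 counts and LXLOC_042114 had 54.1 and 9.34. They are among 91 features with no day 3 count and a lower cultured count from 5 to under 10.

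On the other side of the rule also lay features with few day 3 counts, although more features had a sum of 0 than a sum above 0 and up to 1. NONMMUG038966.2 had 1 count in each day 3 library and 62 and 66 after culture, and NONMMUG039988.2 had 1 and 0 at day 3 and 130 and 40 after culture. Of the 14940 features with 10 or more counts in both cultured libraries, 57 had no day 3 count (0.382%), 19 had a day 3 sum above 0 and up to 1, 35 above 1 and up to 2, 36 above 2 and up to 3, and 73 above 3 and up to 5. With a day 3 sum of up to 3 in place of 0, the rule took 147 features.

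**Figure D5:**
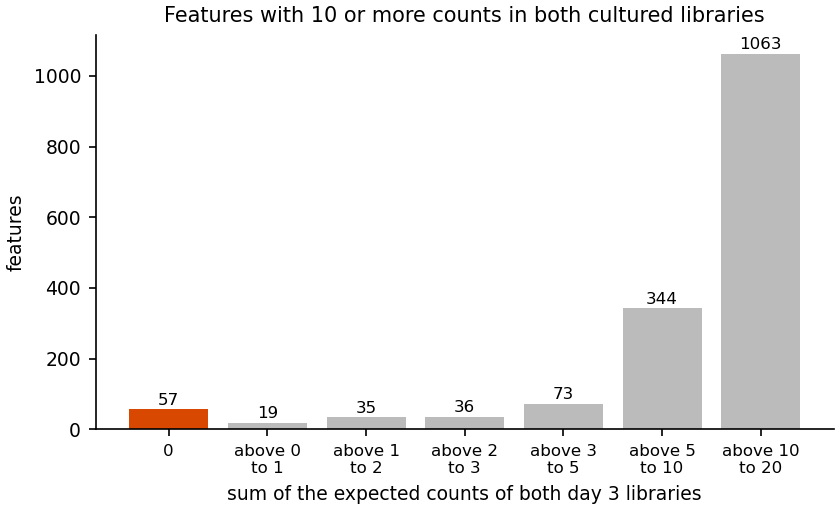
Number of features (vertical axis) with 10 or more counts in both cultured libraries, by the sum of the expected counts in both day 3 libraries. The bar at 0 holds the 57 features, the bars up to a sum of 5 hold 19, 35, 36 and 73, and the 13313 features with a sum above 20 are not drawn.

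An absent day 3 row is not always a count of exactly 0. FPKM is printed to 2 decimals and the smallest value listed is 0.01, and the longest features listed with exactly 1 count were 4117 and 4112 bases in day 3 libraries 1 and 2. In a longer feature 1 count gives an FPKM under 0.005, and such features had no row. Of the 57, 4 are longer, NONMMUG045983.2, NONMMUG014888.2, NONMMUG008644.2 (4304 bases, with 30.9 and 12.9 counts after culture) and LXLOC_019954. For LXLOC_019954 up to 2.08 counts could be unlisted, within the floor of 3 counts used for the bounds.

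As a further description, the features were set in the fit over the whole table. Of the 57, 19 passed the filter of FPKM 0.5 or more in 2 libraries, which they could pass only through the cultured libraries, and all 19 were called higher after culture, where 5.87% of the 8557 features tested were (edgeR, Benjamini-Hochberg adjustment). Without a filter all 57 were called, where 2.23% of 50821 features were. Both cultured FPKM values lay above both day 3 values for 23.1% of the 50821 features, and for the 57 by the rule itself. The rule used the same contrast, and nothing is read from these counts.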

How the data were processed

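Stranded libraries of total ovary RNA from mice were sequenced, and HISAT, Cufflinks and build mm9 appear in the submitters' processing notes without versions or roles. Per the file headers, the authors deposited expected counts, FPKM values (scaled to length and a library total) and lengths, and how the counts were estimated is not stated. Totals behind FPKM, recovered from count divided by FPKM against length, were 49357745 and 49189010 at day 3 and 44249891 and 41410677 after culture.

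Tables were joined on the identifier, a missing row being 0. The members, lists and rule for named features were chosen with earlier results of these data known. Named features are signals with 50 or more counts in both cultured libraries, extremes of library ratio and length, all LXLOC members, members with 3 or more transcripts or with identifier numbers at most 2 apart, and features at the threshold. Other features of 991 bases, and other features named for their identifier number, were added after their values were seen. No identifier matched the mouse tables or GRCm38 annotation at hand (0), so no position or sequence is given.

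Rounded counts were fitted with edgeR 4.0.16 in R 4.3.3 (TMM, quasi-likelihood test, Benjamini-Hochberg adjustment over all features, adjusted p below 0.05) for features with FPKM of 0.5 or more in 2 libraries, with code tested on simulated data. Fold bounds use TMM-scaled counts and 3 counts in each day 3 library. They cover only the counting error of the day 3 zeros, and not that of the cultured counts. The TMM-scaled library sizes were 29543705 and 18536106 in cultured libraries 1 and 2, further apart than the totals behind FPKM. Alternatives were other count rules, scalings and filters, DESeq2 1.42.0, limma 3.58.1, a replicate block and each library left out.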

Additional observations from a re-analysis of the deposited data

How the results depend on the processing

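The number of features counted only after culture depended on the rule. Against 57 features, the rule took 148 at a minimum of 5 cultured counts, 27 at 20 and 11 at 50, 147 with a day 3 sum of up to 3, and 206 with FPKM of 0.1 or more in place of 10 counts, of which 50 were among the 57. Leaving out each library in turn gave 114 to 244 features, since fewer conditions then apply, with 139 without day 3 library 1, 175 without day 3 library 2, 114 without cultured library 1 and 244 without cultured library 2. The number of separate signals was 53 to 54 under other tolerances. Of the 57 features, 19 were called higher by edgeR, 57 with no filter and 10 with a filter at FPKM 1, because the filters decide how many are tested. The other scalings, DESeq2, limma and a replicate block called 19, and leaving out each library, where the library left alone is taken to have the spread of the other group, gave 18 or 19. The rule fixes these calls, so their number says nothing about stability. The labels do not say that replicate numbers pair the libraries, and their deviations from the group means had r = -0.120 over 8557 features. The longest series of identifiers, chosen after seeing the data as were its alternatives, held 19 features, 10 with a minimum of 10 cultured counts, 10 at more than 10 times the day 3 sum, 6 without cultured library 1 and 18 without cultured library 2. With the FPKM totals as scale the median bound of the 53 signals was at least 9.24-fold. The depth limits the faint signals, 30 of which had under 20 counts in a cultured library.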
